A study of Homo sapiens with 16 samples.

Results

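The CD1 family was examined in T-lineage acute lymphoblastic leukemia (T-ALL) cells with reduced USP7. The 5 members, CD1A, CD1B, CD1C, CD1D and CD1E, were the rows of the count table with these gene symbols, out of 57820 genes, by a rule that uses the names alone. RNA-seq had been performed on 16 libraries of Jurkat and HSB-2, established T-ALL cell lines that both carry active TAL1, to ask how partial loss of the deubiquitylating enzyme USP7 affects transcription. There were 4 groups in each line, with 2 libraries per group, namely wild-type cells that were not transduced, a scrambled control, USP7 shRNA-4057 and USP7 shRNA-4058. The hairpins were delivered by lentivirus, and transduced cells were sorted for GFP or selected with puromycin, without a statement of which applied to these libraries. The control is called an siRNA in the sample labels and an shRNA in the design text. The labels do not say whether replicates were separate transductions, so p-values measure the spread between these libraries only.

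CD1 proteins resemble MHC class I molecules, pair with beta-2-microglobulin and present lipids instead of peptides to T cells. CD1A, CD1B and CD1C present lipids to diverse T cells, CD1D presents them to natural killer T cells, and CD1E stays inside the cell and helps to load lipids onto other members. In the thymus the family marks immature cortical thymocytes and is lost as T cells mature, and CD1A is used to recognize the cortical stage in T-ALL.

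Libraries held between 76.6 and 235.5 M (mega) counts in total, and HSB-2 libraries of a group could differ by more than those of Jurkat. Of 9 T-lineage markers, all 9 averaged 1 CPM or more in both lines, where CPM are read counts scaled to a library of fixed size after TMM (trimmed mean of M values) normalization. These markers ranged in HSB-2 from a mean of 3.15 CPM for CD2 (96.3 CPM in Jurkat) to 1541 CPM for LCK. Their summed level was 2511 to 2886 CPM in Jurkat control and 2056 to 2220 CPM in Jurkat shRNA libraries, and 2395 to 2847 CPM in HSB-2 control and 3146 to 3624 CPM in HSB-2 shRNA libraries, without overlap, and its part in the CD1 results was not tested. USP7 was reduced in all 4 shRNA groups, to 37.03% of scrambled with shRNA-4057 and 63.0% with shRNA-4058 in Jurkat, and to 65.5% and 71.0% in HSB-2. Scaling bears on small differences here, since with plain library totals the median log2 fold change of all genes moved by 0.25 in the pooled Jurkat comparison with scrambled and by -0.14 in that of HSB-2. The genes called higher then changed from 44.1% to 81.2% of all called genes in Jurkat and from 53.2% to 32.5% in HSB-2. RN7SL2, an abundant small RNA, took between 4.01% and 4.84% of counts in Jurkat scrambled and between 1.78% and 3.14% in other Jurkat libraries. In HSB-2 RN7SL2 took between 1.36% and 1.74% in control and between 1.98% and 2.39% in shRNA libraries. Its part in the shift was not tested.

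All 5 members were expressed in Jurkat, and CD1E was by far the most abundant. Levels of different genes are compared per length here, as CPM per kb of all annotated exons. In wild-type Jurkat, CD1E stood at 154 ± 1.3 CPM per kb (SD, n = 2), followed by CD1A at 39.7 ± 0.071, CD1B at 27.4 ± 0.64, CD1C at 12.9 ± 0.32 and CD1D at 7.77 ± 0.11 CPM per kb. CD1E took 63.7% ± 0.33 of the summed family level per kb in wild-type cells. This order was the same in each of the 8 Jurkat libraries, and neighbours in it did not overlap within any group. Using the length of the longest transcript raised CD1D to 8.96 and CD1E to 177 CPM per kb in wild-type cells and left the order as it was.

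**Figure D1:**
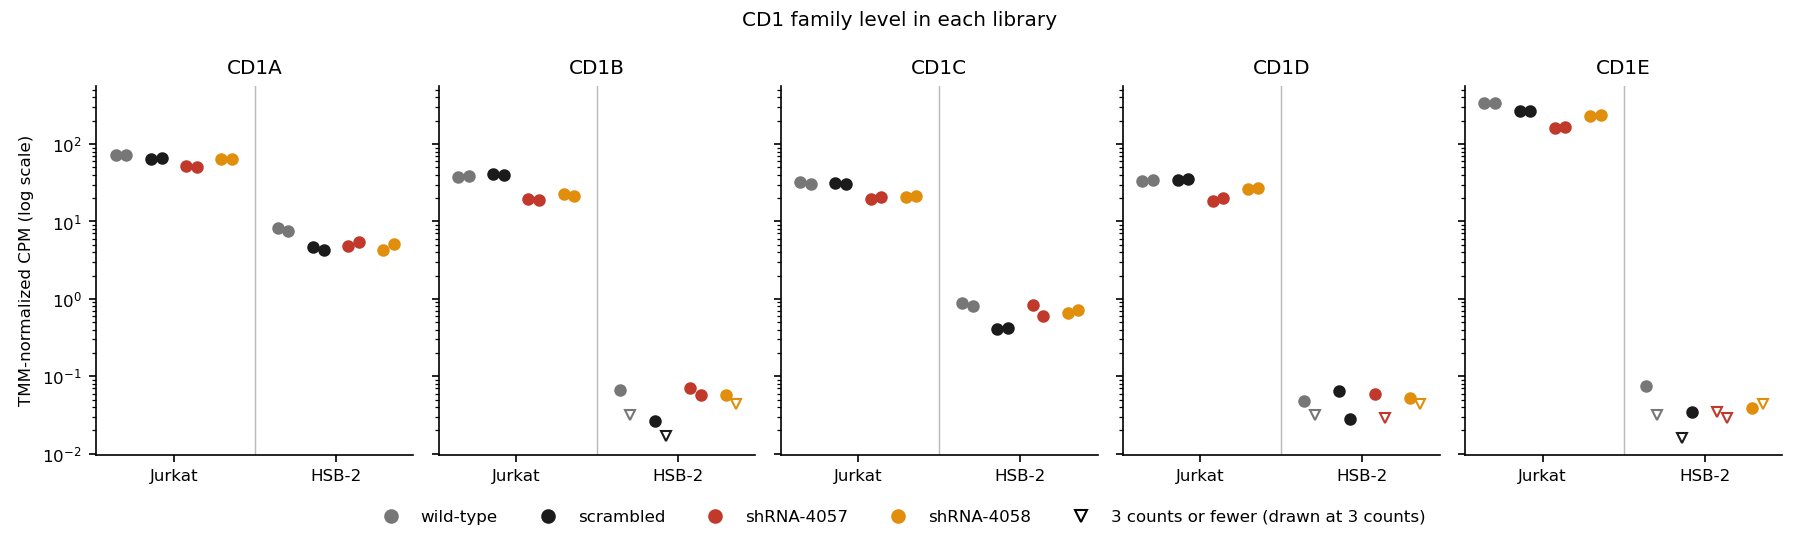
TMM-normalized CPM (log scale) of each CD1 gene in each library, with 2 libraries per group and open triangles at the level of 3 counts for libraries with 3 counts or fewer. CD1B, CD1C, CD1D and CD1E lie lower in both Jurkat shRNA groups than in both control groups, and the share of all genes that do so was not measured. CD1B, CD1D and CD1E lie near the floor in HSB-2.

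CD1B, which presents long-chain lipids, had the largest reduction of the family against scrambled in Jurkat. It was at 37.5 and 38.8 CPM in the wild-type libraries, 40.7 and 39.8 in scrambled, 19.7 and 18.9 with shRNA-4057, and 22.8 and 21.2 with shRNA-4058. The 4 shRNA libraries all lay below the 4 control libraries. CD1C, a lipid-presenting member found on B cells and dendritic cells as well as thymocytes, was at 32.0 and 30.9 CPM in wild-type, 31.7 and 30.1 in scrambled, 19.5 and 20.9 with shRNA-4057, and 20.4 and 21.4 with shRNA-4058. Here too the shRNA and control libraries did not overlap, and the hairpins gave similar levels. CD1A showed a different pattern. Its levels were 71.7 and 71.9 CPM in wild-type, 64.0 and 66.3 in scrambled, 51.6 and 50.8 with shRNA-4057, and 64.5 and 64.5 with shRNA-4058. The shRNA-4057 libraries were thus the lowest, while those with shRNA-4058 lay within the range of scrambled.

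CD1D, the member seen by natural killer T cells, was at 33.5 and 34.2 CPM in wild-type Jurkat, 34.4 and 35.5 in scrambled, 18.2 and 19.99 with shRNA-4057, and 26.7 and 27.4 with shRNA-4058. The groups formed 3 separate levels, with controls highest and shRNA-4057 lowest. CD1E was at 341 and 337 CPM in wild-type, 270 and 264 in scrambled, 163 and 166 with shRNA-4057, and 233 and 238 with shRNA-4058. Its 4 groups did not overlap, and the scrambled control itself lay below wild-type cells. The share of all genes whose shRNA and control libraries separate in this way was not measured. The lack of overlap in these genes is therefore not read as particular to the family.

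The hairpins were then tested together. With both as 1 group of 4 libraries against scrambled, 3 of 5 members were called lower in Jurkat, where 15.7% of the 21288 genes tested were called lower. A gene was called at an adjusted p under 0.05 over all genes tested, by edgeR's quasi-likelihood test, which also gave the adjusted p-values that follow. The pooled fits, here and below, take the 4 shRNA libraries as separate. Replicates of a hairpin could lie closer together than the hairpins, as for CD1D, so the pooled p-values describe these libraries only. The log2 fold change of CD1C was -0.56 (SE 0.072, edgeR adjusted p 0.0016), which left 67.6% of the scrambled level. CD1D had -0.57 (SE 0.17, edgeR adjusted p 0.040), which left 67.3%. CD1B fell to 52.2% of scrambled and was called, while CD1A and CD1E were not. The call of CD1D depended on the libraries, being lost without either scrambled replicate (edgeR adjusted p 0.15 without replicate 1 and 0.20 without replicate 2) or without shRNA-4057 replicate 2 (0.075). CD1D was also not called with at least 10 counts in every library (adjusted p 0.051), with a GC and length offset (0.056), with a replicate block (0.071) or with library totals (0.18), all in edgeR. With library totals the difference in CD1A turned from -0.15 to 0.11. Against wild-type cells, 3 of 5 members were called lower with 5.31% of genes called lower, namely CD1B (log2 fold change -0.86, edgeR adjusted p 0.0048), CD1C (-0.59, adjusted p 0.0066) and CD1E. CD1D was not called in that comparison (-0.52, edgeR adjusted p 0.099), although it was with DESeq2 (adjusted p 0.035) and in edgeR without a filter (0.038). Without wild-type replicate 1 or without replicate 2 none of these calls held, with edgeR adjusted p-values of 0.090 and 0.12 for CD1B. The CD1E call was also lost without shRNA-4057 replicate 1 (0.053) or replicate 2 (0.066), and with library totals (0.054).

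Taken singly, each hairpin lowered most of the family in Jurkat. In a fit of all libraries as 8 groups, shRNA-4057 lowered 5 of 5 members, with 27.3% of 23063 genes called lower. The log2 fold changes were -1.06 (SE 0.074) for CD1B, -0.87 (SE 0.076) for CD1D, -0.70 for CD1E, -0.61 (SE 0.067) for CD1C and -0.35 for CD1A, and the largest adjusted p in edgeR was 1.9e-05. With shRNA-4058, 4 of 5 members were called lower, with 26.7% of genes called lower. CD1B had -0.87 (SE 0.074), CD1C -0.56 (SE 0.067), CD1D -0.37 (SE 0.074, edgeR adjusted p 2.3e-04) and CD1E -0.18. CD1A did not pass (-0.014, SE 0.057). The CD1E call with shRNA-4058 was lost without scrambled replicate 1, without scrambled replicate 2 or without shRNA-4058 replicate 1 (adjusted p 0.063, 0.076 and 0.064 by the same test). With library totals CD1A was not called with shRNA-4057 (adjusted p 0.31), nor CD1D with shRNA-4058 (0.38), by the same test. The CD1E value with shRNA-4058 turned to 0.10, and CD1A was then called higher with this hairpin (0.27, edgeR adjusted p 6.1e-04).

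Set directly against each other, shRNA-4057 gave lower levels than shRNA-4058 for 3 of 5 members, with 16.2% of genes called lower. These were CD1E (log2 difference -0.52, SE 0.058, adjusted p 2.3e-07), CD1D (-0.50, SE 0.076, adjusted p 1.2e-05) and CD1A (-0.33, SE 0.057, adjusted p 5.6e-05) in edgeR. CD1B (-0.19, SE 0.075, adjusted p 0.057) and CD1C (-0.05, SE 0.068, adjusted p 0.63) did not pass that test, although CD1B passed with DESeq2 (adjusted p 0.013). USP7 itself was lower with shRNA-4057 than with shRNA-4058 (log2 difference -0.77), and its part in these differences was not tested. Scrambled cells differed from wild-type cells in 1 of 5 members, CD1E, which was lower (-0.35, SE 0.058, edgeR adjusted p 7.9e-05). Over all genes, 5964 of 23063 were called in either direction and 11.0% were called lower.

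**Figure D2:**
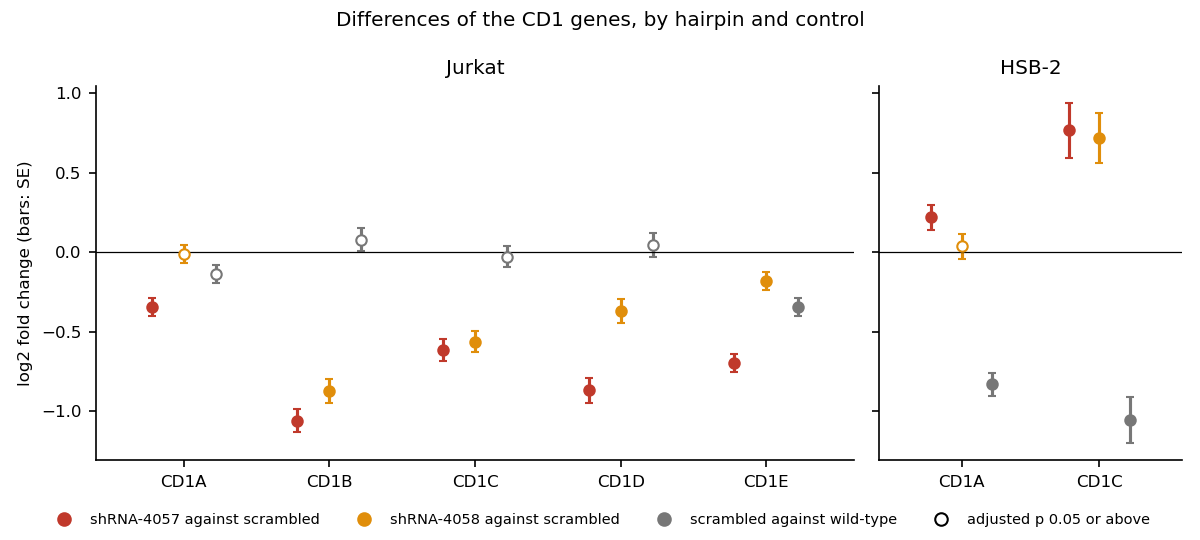
Log2 fold changes of the CD1 genes in the fit of 8 groups, with bars for the SE and open points for an adjusted p of 0.05 or above. In Jurkat CD1B and CD1C lie at similar values with both hairpins, while CD1A, CD1D and CD1E lie lower with shRNA-4057, and in HSB-2 CD1C lies above 0 with both hairpins and below 0 for scrambled against wild-type.

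Because the members differed in how far they fell, the ratio of each pair of members within a library was compared next. Such a ratio does not depend on how libraries are scaled. The 4 shRNA and 4 control libraries (scrambled and wild-type) of Jurkat were compared by an exact permutation test, two-sided, over 70 splits. Its smallest p is 0.029, with adjustment over 10 pairs. The splits treat replicates of a group as separate libraries, although replicates could lie closer together than groups. For CD1B to CD1E the log2 ratio was -3.18 and -3.12 in wild-type and -2.73 in both scrambled libraries. The p-values of this test therefore describe the separation of these libraries only. Of the 10 pairs, 6 passed, each with an adjusted p of 0.048 by the exact permutation test. Each of them was at the smallest p of the test. Every call therefore depended on the others reaching it too, and no pair could have passed alone. In these 6, shRNA and control libraries did not overlap. The share of all gene pairs that would pass was not measured, so the count is not read as particular to the family. Each of the 6 holds CD1A or CD1B, so they are not separate results. CD1A gained relative to every other member. The log2 ratio of CD1A to CD1B was 0.80 ± 0.13 (SD, n = 4) in control and 1.48 ± 0.097 in shRNA libraries, a difference of 0.68. The CD1A ratio to CD1C rose by 0.35, that to CD1D by 0.35 and that to CD1E by 0.36. CD1B lost relative to CD1C, by -0.32, and relative to CD1D, by -0.33. The ratio of CD1B to CD1E differed by -0.32 but its libraries overlapped (adjusted p 0.20 by the exact permutation test). The ratios among CD1C, CD1D and CD1E differed by between -0.0048 and 0.014, and in them the hairpins lay on opposite sides of the control mean for CD1C to CD1D and CD1C to CD1E.

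**Figure D3:**
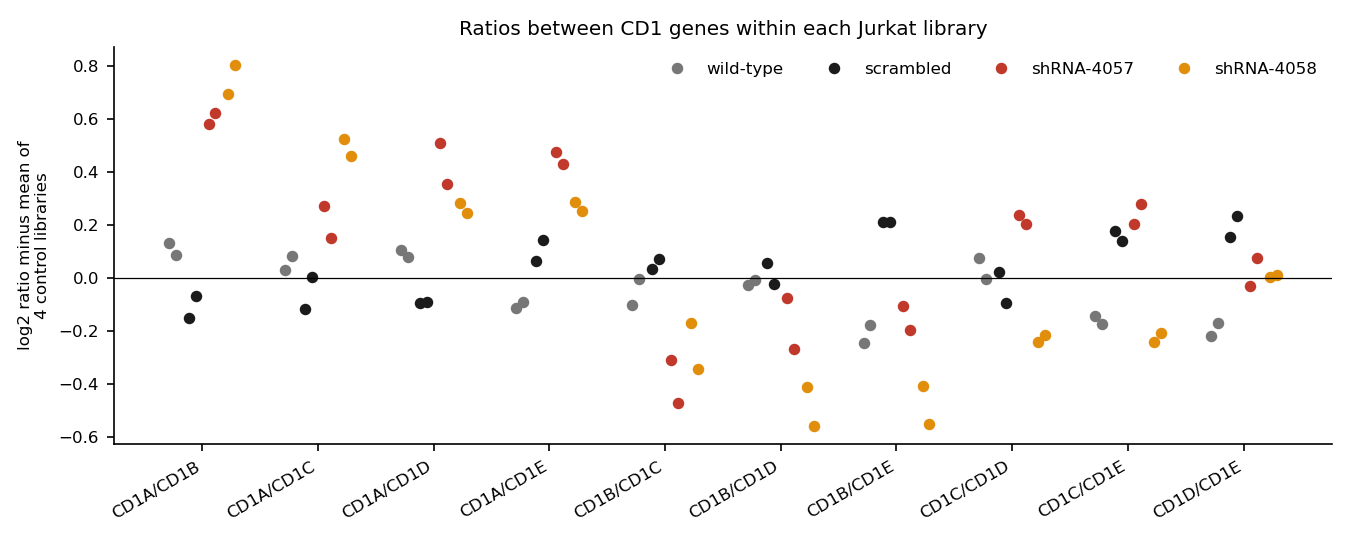
Log2 ratio of counts for each pair of CD1 genes in each Jurkat library, minus the mean of the 4 control libraries. Ratios of CD1A to the other members lie above all control libraries in each of the 4 shRNA libraries, by 0.68 on average for CD1A to CD1B.

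In HSB-2 the family was much lower and consisted almost wholly of CD1A. Only CD1A and CD1C, 2 of 5 members, passed the filter on low counts. CD1A was at 8.21 and 7.45 CPM in wild-type, 4.62 and 4.24 in scrambled, 4.86 and 5.44 with shRNA-4057, and 4.28 and 5.05 with shRNA-4058. Wild-type cells were highest, and the range of shRNA-4058 overlapped those of scrambled and shRNA-4057. CD1C was at 0.885 and 0.810 CPM in wild-type, 0.407 and 0.421 in scrambled, 0.829 and 0.599 with shRNA-4057, and 0.664 and 0.726 with shRNA-4058, from 49 to 202 counts per library. Scrambled cells were the lowest group for CD1C, below all 4 shRNA libraries. CD1A accounted for between 88.8% and 92.4% of the family level per kb in the 4 groups. The others were near the floor, taken as 3 counts. CD1B had 0 to 15 counts per library, CD1D 1 to 12 and CD1E 0 to 17, and CD1E had 0 counts in both shRNA-4057 libraries, which allows up to 0.035 and 0.029 CPM. A difference between groups was not detectable at this depth for these 3 genes.

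In the pooled HSB-2 comparison with scrambled, 1 of 2 measurable members was called higher, with 20.3% of 21113 genes called higher. This was CD1C, whose log2 value was 0.76 (SE 0.23, adjusted p 0.028 in edgeR). It did not pass with a replicate block (edgeR adjusted p 0.054). The call was lost without scrambled replicate 1 (adjusted p 0.17), scrambled replicate 2 (0.13) or shRNA-4057 replicate 1 (0.060), by the same test, and with library totals (0.055). With shRNA-4057 alone, CD1C (0.77, SE 0.17, adjusted p 7.2e-04) and CD1A were called higher in edgeR, 2 of 2, with 21.9% of genes called higher. Leaving out shRNA-4057 replicate 1 ended the CD1C call (adjusted p 0.051 by that test), and leaving out shRNA-4057 replicate 2 or scrambled replicate 2 ended the CD1A call (adjusted p 0.35 and 0.20), as did library totals (0.33). With shRNA-4058, CD1C was called (0.72, SE 0.16, edgeR adjusted p 5.2e-04), 1 of 2, with 26.6% of genes called higher. CD1A had 0.036 with shRNA-4058, which turned to -0.12 with library totals. Between the hairpins 0 of 2 were called with edgeR, against 24.8% of genes called in either direction, and 1 of them, CD1A, had an unadjusted p under 0.05 (adjusted p 0.11). DESeq2 also called 0 there.

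The 2 controls of HSB-2 differed in both measurable members. Scrambled cells were lower than wild-type cells in CD1A (log2 fold change -0.83, SE 0.071, adjusted p 1.8e-09) and CD1C (-1.05, SE 0.15, adjusted p 3.9e-06) in edgeR, 2 of 2, with 17.9% of genes called lower. Pooled USP7 shRNA against wild-type cells called 1 of 2 lower, with 11.8% of genes called lower. This was CD1A, whose call was lost without wild-type replicate 1 (edgeR adjusted p 0.077). CD1C had -0.28 there (SE 0.21, adjusted p 0.36). The sign of the HSB-2 estimates for CD1A and CD1C therefore depended on which control it was set against, and with scrambled and wild-type libraries as 1 control the values were -0.32 and 0.16, neither called (adjusted p 0.27 and 0.70 in edgeR).

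Between the control cells of the lines, CD1A and CD1C, the members measurable in both, were called higher in Jurkat, 2 of 2, with 38.8% of genes called higher. CD1A was 11.6-fold higher (log2 difference 3.53, SE 0.047) and CD1C 52.2-fold higher (5.71, SE 0.069), with adjusted p-values of 1.1e-26 and 1.6e-27 in edgeR. CD1B, CD1D and CD1E entered this fit through their Jurkat counts alone, so neither a call nor a fold is read for them. The HSB-2 control libraries held at most 17 counts of any of these 3, and the Jurkat control libraries at least 3081. The effect of each hairpin was also compared between the lines by an interaction term, for CD1A and CD1C. For shRNA-4057 both were called lower in Jurkat than in HSB-2, with 24.9% of genes called lower. The interaction was -1.38 for CD1C (SE 0.19, adjusted p 1.3e-06) and -0.57 for CD1A (SE 0.098, adjusted p 3.8e-05) in edgeR. For shRNA-4058 it was -1.28 for CD1C (SE 0.17, adjusted p 9.2e-07 by the same test) and -0.05 for CD1A, 1 of 2 called, with 29.6% of genes called lower. With library totals, which moved the median interaction of all genes by 0.39 and 0.44, CD1C was still called lower for both hairpins, while CD1A was not called for shRNA-4057 (-0.18) and was called higher for shRNA-4058 (0.39). The interaction takes the scrambled libraries as the reference in each line, and these differ from wild-type cells in HSB-2 as given above.

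The 5 genes lie in 1 cluster on chromosome 1, from 158147820 to 158327343 in GRCh37, a span of 179.5 kb. CD1D (ENSG00000158473.6, 158147820 to 158156217) comes first, followed by CD1A (ENSG00000158477.6, 158224214 to 158228059), CD1C (ENSG00000158481.8, 158259713 to 158264564), CD1B (ENSG00000158485.6, 158297741 to 158301321) and CD1E (ENSG00000158488.11, 158323486 to 158327343). CD1B is on the minus strand and the others on the plus strand. No other gene of the count table overlaps a member. In Jurkat the differences did not follow the order along the cluster. CD1A, which lies between CD1D and CD1C, had the smallest difference with shRNA-4057 and a difference near 0 with shRNA-4058. The transcripts resemble each other, with 67.6% to 75.0% identity over the aligned stretch of each pair. The longest run of identical bases was 92 between CD1A and CD1B, 88 between CD1B and CD1E and 80 between CD1A and CD1E. Reads within such runs could have been assigned to another member or left uncounted, so levels of these 3 are uncertain to that extent.

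**Figure D4:**
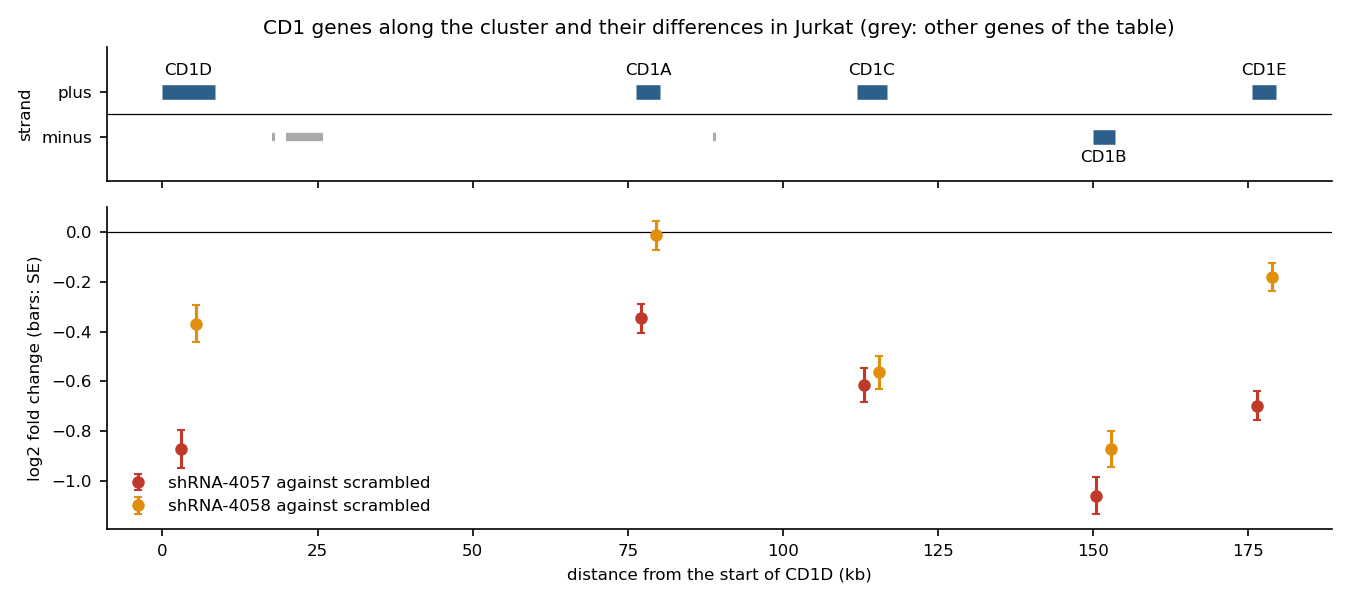
The CD1 cluster drawn to scale by distance from the start of CD1D (kb), by strand, above the log2 fold changes in Jurkat (bars are SE). The values do not rise or fall steadily with distance, running from -0.87 at CD1D through -0.35 at CD1A to -1.06 at CD1B with shRNA-4057.

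Since E proteins, the transcription factors that the study relates to USP7, bind E-boxes of the form CANNTG, the 250 bases before the start site were examined for the 4 members in the RefSeq promoter table of GRCh38.p14. CD1B was not matched there. The table held 2 windows each for CD1A and CD1D, of which the downstream one is shown. E-boxes found in a search of both strands for this palindromic form are in capitals. The sequences are shown to set the printed window with the most E-boxes beside the printed windows with none.
CD1C (chr1:158289673-158289922, plus strand): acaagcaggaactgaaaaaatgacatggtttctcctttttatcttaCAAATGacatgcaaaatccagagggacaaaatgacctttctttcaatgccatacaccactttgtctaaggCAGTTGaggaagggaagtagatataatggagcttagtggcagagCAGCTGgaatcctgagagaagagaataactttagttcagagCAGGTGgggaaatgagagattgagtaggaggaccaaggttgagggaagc
CD1A (chr1:158254174-158254423, plus strand): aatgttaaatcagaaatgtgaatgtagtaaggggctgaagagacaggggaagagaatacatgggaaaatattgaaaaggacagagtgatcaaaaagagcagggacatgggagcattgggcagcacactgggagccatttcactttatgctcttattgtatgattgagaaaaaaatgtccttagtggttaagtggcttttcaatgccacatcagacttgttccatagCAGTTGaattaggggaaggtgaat
CD1D (chr1:158180645-158180894, plus strand): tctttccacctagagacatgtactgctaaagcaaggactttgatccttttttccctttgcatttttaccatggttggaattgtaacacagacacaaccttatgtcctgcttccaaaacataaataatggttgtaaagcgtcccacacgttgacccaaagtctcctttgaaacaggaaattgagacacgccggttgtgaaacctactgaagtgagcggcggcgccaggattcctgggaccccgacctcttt
CD1E (chr1:158353644-158353893, plus strand): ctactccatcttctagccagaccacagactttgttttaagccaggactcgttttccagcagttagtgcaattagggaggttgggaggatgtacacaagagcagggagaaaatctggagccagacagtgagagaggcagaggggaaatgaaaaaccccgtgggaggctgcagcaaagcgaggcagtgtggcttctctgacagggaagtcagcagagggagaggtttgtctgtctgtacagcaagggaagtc

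The CD1C window held 4 E-boxes, at -204, -134, -90 and -49 from the start site, of which 3 had the form CAGNTG, a part of the CANNTG matches. The CD1A window held 1, at -24, while its upstream window held 3. The CD1D and CD1E windows held 0, and the upstream CD1D window held 1. Of all 35116 windows of this length in the table, 61.8% held at least 1 CANNTG, 42.5% held at least 1 CAGNTG and 3.35% held 4 or more CANNTG.

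Genes with the profile most like each member were taken by Pearson's r of log2 CPM over the 8 Jurkat libraries, among 13723 genes averaging 1 CPM or more. The 8 libraries are 4 pairs of replicates, so r mainly describes the 4 group levels. For CD1A these were DOCK5 (r 0.996), KLHL29 (0.988) and NASP (0.986), and DOCK5, a guanine nucleotide exchange factor, ran from 27.2 CPM in wild-type to 19.0 with shRNA-4057 and 24.0 with shRNA-4058. For CD1B they were a gene without an approved symbol (r 0.998), PLEKHH2 (0.996) and PLTP (0.996), a phospholipid transfer protein that went from 5.04 CPM in scrambled to 1.34 and 1.81 with the hairpins. CD1C was most like TBC1D1 and LTA4H (r 0.993 and 0.992), CD1D like PDHB, ACAT2 and CRK (0.997 to 0.993), and CD1E like KCTD3, MSI2 and PCK2 (0.999 to 0.990). Among the members themselves, r was highest for CD1B with CD1C (0.976) and for CD1A with CD1E (0.972) and lowest for CD1A with CD1C (0.732). In HSB-2 the profile of CD1A was most like those of PGBD1, NEAT1 and EPB41L2 (r 0.970 to 0.966).

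The partners of CD1 proteins were examined through fixed lists in the pooled comparisons. Against scrambled, 12.4% of all genes were called higher and 15.7% lower in Jurkat, and 20.3% higher and 17.8% lower in HSB-2. Against wild-type, 3.10% were called higher and 5.31% lower in Jurkat, and 13.3% higher and 11.8% lower in HSB-2. The counts of each list are to be read against these shares, and the choice of control changed many of the values.

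Beta-2-microglobulin, B2M, was at 411 CPM in wild-type Jurkat, 448 in scrambled, 458 with shRNA-4057 and 300.5 with shRNA-4058. With the hairpins pooled it was not called against scrambled (log2 fold change -0.22, edgeR adjusted p 0.42). By single hairpin, B2M was called lower with shRNA-4058 (-0.58, edgeR adjusted p 3.1e-12) and not called with shRNA-4057 (0.030, adjusted p 0.50). In HSB-2 B2M was called higher against scrambled (0.45, edgeR adjusted p 0.0093) and not against wild-type (0.10, adjusted p 0.52), and scrambled lay below wild-type (-0.34, adjusted p 5.1e-08). Of the CD1 assembly list, which adds the chaperones CANX, CALR and PDIA3 and the lipid transfer protein MTTP, 0 genes rose and 1 fell of 4 tested against scrambled in Jurkat, and 1 rose and 2 fell of 5 in HSB-2. Against wild-type, 0 rose and 1 fell of 4 in Jurkat, and 0 rose and 2 fell of 4 in HSB-2. The medians against scrambled were -0.16 and -0.13, beside 0.020 and -0.018 over all genes. Calreticulin, CALR, was called lower in both lines against both controls. It fell by 0.75 on the log2 scale against scrambled in Jurkat (edgeR adjusted p 6.2e-04) and by 0.41 against wild-type (adjusted p 0.019). In HSB-2 CALR fell by 0.48 (edgeR adjusted p 3.2e-04) and by 0.44 (adjusted p 0.0014). Calnexin, CANX, fell in HSB-2 by 0.38 against scrambled (edgeR adjusted p 5.05e-04) and by 0.19 against wild-type (adjusted p 0.022).

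The trafficking list holds adaptor complexes AP-2 and AP-3 and small GTPases that move CD1 between the surface and lysosomes. Of 13 tested genes, 3 rose and 2 fell against scrambled in Jurkat, and 5 rose and 1 fell in HSB-2, with medians of -0.080 and 0.18. Against wild-type, 0 rose and 1 fell of 13 in Jurkat, and 4 rose and 1 fell of 13 in HSB-2. In Jurkat AP3S2 was called against scrambled (-0.28, edgeR adjusted p 0.045) and wild-type (-0.34, adjusted p 0.048). The AP-3 subunit AP3B1 (0.43, edgeR adjusted p 0.012), AP2A2 (0.43, adjusted p 0.025) and AP2S1 (-0.51, adjusted p 0.0017) were called against scrambled only, with values against wild-type of 0.24, 0.059 and -0.18. In HSB-2, ARF6, a GTPase of endosomal recycling, was called against scrambled (0.61, edgeR adjusted p 7.8e-05) and wild-type (0.18, adjusted p 0.036). AP3D1 had 0.49 against scrambled (edgeR adjusted p 2.2e-04), which turned to -0.050 against wild-type (adjusted p 0.50), and AP3M1 had -0.21 (adjusted p 0.040) and -0.13 (adjusted p 0.19).

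Of 11 lysosomal genes for lipid transfer and processing, 1 rose and 3 fell against scrambled in Jurkat and 6 rose and 0 fell in HSB-2, with medians of -0.14 and 0.23. Against wild-type, 2 rose and 3 fell of 11 in Jurkat, and 6 rose and 0 fell of 11 in HSB-2. The lipid transfer proteins GM2A and NPC2 were called lower in Jurkat against both controls. GM2A had -0.79 against scrambled (edgeR adjusted p 5.4e-04) and -0.53 against wild-type (adjusted p 0.0096), and NPC2 had -0.78 (adjusted p 4.3e-04) and -0.49 (adjusted p 0.0098). In HSB-2 cathepsin S, CTSS, had 1.06 against scrambled (edgeR adjusted p 3.0e-05) and 0.58 against wild-type (adjusted p 0.0025). The cholesterol transporter NPC1 had 0.39 (edgeR adjusted p 0.0058) and 0.22 (adjusted p 0.089). Each called value named for these lists against scrambled exceeded in size the shift of the median that plain library totals brought in that line. The list genes were not refitted with library totals, so whether their calls would hold was not tested.

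Neighbours of the cluster were mostly not expressed. Of 25 listed genes from FCRL5 to AIM2, 24 were matched and 6 passed the filter in Jurkat, with edgeR adjusted p-values against scrambled from 0.061 to 0.67. Against wild-type, 0 rose and 1 fell of 6. In HSB-2, 3 passed and 2 rose against each control, PYHIN1 and IFI16, interferon-inducible genes of the PYHIN family. PYHIN1 had 3.16 against scrambled (edgeR adjusted p 1.1e-05) and 1.08 against wild-type (adjusted p 0.0055), and IFI16 had 0.71 (adjusted p 2.2e-05) and 0.17 (adjusted p 0.039).

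Other markers of cortical thymocytes showed a count of 1 higher and 7 lower of 13 tested against scrambled in Jurkat, and of 0 higher and 4 lower of 13 against wild-type, with medians of -0.51 and -0.53. The recombinase RAG1 had -1.66 against scrambled (adjusted p 0.049 in edgeR) and -1.35 against wild-type (adjusted p 0.15). Terminal transferase, DNTT, had -1.54 against scrambled (edgeR adjusted p 0.025) and -1.55 against wild-type (adjusted p 0.054). RAG1 and PTCRA, also of this list, had been singled out by the study in these Jurkat cells. Their directions, and the counts and medians that include them, are not independent evidence. The coreceptor gene CD8A had 1.11 against scrambled (edgeR adjusted p 0.0065), which turned to -0.14 against wild-type (adjusted p 0.65), at 1.38 CPM in wild-type, 0.58 in scrambled, and 1.26 and 1.19 with the hairpins. In HSB-2, 4 rose and 1 fell of 8 against scrambled, with a median of 0.75, and 3 rose and 0 fell of 7 against wild-type. CD8A rose there by 3.09 against scrambled (edgeR adjusted p 5.9e-05) and by 0.93 against wild-type (adjusted p 0.018). CCR9 was called higher against scrambled, from 2 counts over both scrambled libraries to 39 and 46 counts with the hairpins, and not against wild-type (edgeR adjusted p 0.054).

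**Figure D5:**
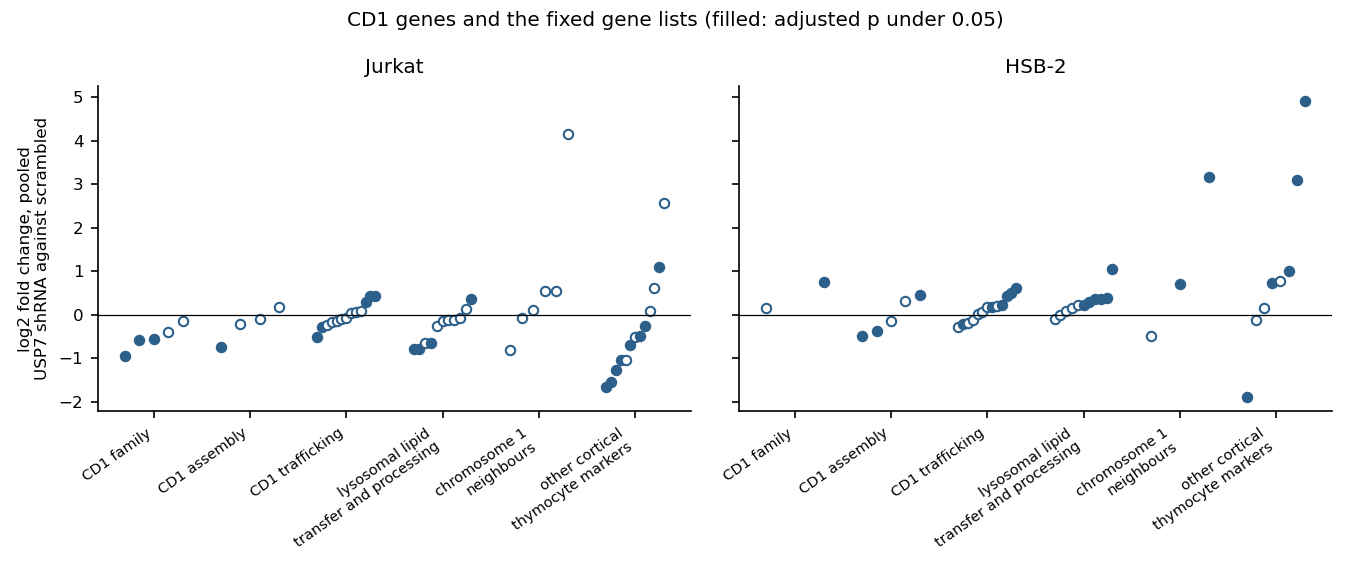
Log2 fold changes with pooled USP7 shRNA against scrambled for the CD1 genes and the members of each list, with filled points for an adjusted p under 0.05. In Jurkat the medians lie at -0.14 for the lysosomal list and -0.51 for the cortical markers, and in HSB-2 at 0.23 and 0.75.

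Markers of other cells that carry CD1 proteins were measured beside these results. Of 5 dendritic and Langerhans cell markers, 0 averaged 1 CPM or more in either line, and 3 of them, CLEC10A, FCER1A and CLEC9A, had 0 counts in all Jurkat libraries. The summed level of this list was 0.011 to 0.086 CPM in Jurkat control and 0.025 to 0.053 CPM in Jurkat shRNA libraries. In HSB-2 it was 0.064 to 0.55 CPM in control and 0.46 to 1.42 CPM in shRNA libraries, nearly all of it from ITGAX, and its part in the HSB-2 results was not tested. Of 5 monocyte and macrophage markers, 0 reached a mean of 1 CPM, with sums of at most 0.38 CPM in Jurkat and 0.21 CPM in HSB-2. Of 5 B-cell markers, 1 reached it in Jurkat, CD79A, and 1 in HSB-2, PAX5. The summed B-cell list was 35.9 to 64.8 CPM in Jurkat control and 22.04 to 22.96 CPM in Jurkat shRNA libraries, nearly all of it CD79A, and its part in the Jurkat results was not tested. MS4A1, a defining B-cell gene, had at most 35 counts per Jurkat library. Fewer cells of a type and less RNA per cell cannot be told apart in these bulk libraries.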

How the data were processed

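RNA-seq read counts were analysed for 16 libraries of Jurkat and HSB-2. Per the labels, total RNA was ribo-depleted and sequenced as stranded libraries. The authors mapped reads with an in-house pipeline built on BWA against GRCh37-lite and transcript collections and counted them with HTSeq 0.6.1p1, the version in the submitters' processing notes, which also list STAR, CASAVA and hg19. The deposited table holds unnormalized read counts for each gene, and the strand setting and annotation release are not given in the sources used here. The file holds Ensembl identifiers, of which 96.1% were paired with a symbol through a table of gene names. Gene coordinates and lengths came from GENCODE models lifted to GRCh37, and promoter sequences from RefSeq on GRCh38.p14.

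Genes were kept by filterByExpr, scaled by TMM and tested across all genes with the quasi-likelihood F-test of edgeR 4.0.16 in R 4.3.3, with Benjamini-Hochberg adjustment and a threshold of 0.05. The SE was the absolute log2 fold change divided by the square root of F. Pooled comparisons used 4 shRNA libraries against 2 controls in 1 line, and all other contrasts came from a fit of 8 groups. Ratios within a library (pseudocount 0.5) were tested by exact permutation in SciPy 1.17.1. Alternatives were DESeq2 1.42.0, its size factors, other filters, a GC and length offset, a replicate block, other controls and each library left out. Library totals and the mean of the hairpins were added after the data had been seen. The test scripts were checked on simulated counts. Over all genes, replicates differed by more than sampling noise, with a chi-square per degree of freedom of at least 5.41, so none was counted as a duplicate. The floor of 3 counts covers counting error only and corresponded to 0.0132 to 0.0444 CPM.

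The members and lists were chosen with earlier results of these data known. All members and USP7 are named, with B2M and, from each list, the 2 called genes with the largest log2 fold change in each direction per line. A few genes that this rule or the likeness measure would name are not reported here.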

Additional observations from a re-analysis of the deposited data

Results flagged for a closer look

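The effect of USP7 shRNA differed between the lines, by a test of the difference itself, in 3 cases. With shRNA-4057 the log2 effect on CD1A in Jurkat minus that in HSB-2 was -0.57 (edgeR adjusted p 3.8e-05). For CD1C the same difference was -1.38 with shRNA-4057 (adjusted p 1.3e-06) and -1.28 with shRNA-4058 (adjusted p 9.2e-07), both from edgeR. CD1C was thus lower than scrambled in Jurkat and higher than scrambled in HSB-2 with each hairpin, while in HSB-2 scrambled cells themselves were below wild-type cells. The groups of 2 libraries are too small for a search for outlying libraries.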

How the results depend on the processing

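Replicate numbers did not pair the libraries, since correlations of deviations between groups ran from -0.17 to 0.16 (14045 genes). With a replicate block, counts of called members stayed within 1.5 times except in the pooled HSB-2 comparison with scrambled, where 0 were called in place of 1 (CD1C, edgeR adjusted p 0.054). The block also ended the pooled Jurkat calls of CD1D against scrambled (adjusted p 0.071) and CD1E against wild-type (0.090). DESeq2, its size factors, or no filter changed no count of called members by over 1.5 times. CD1B against the other hairpin was called under each of these (adjusted p 0.013, 0.039 and 0.049).

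Under a filter of at least 10 counts in every library, the fit of 8 groups kept 2 members, so counts became 2 for shRNA-4057, 1 for shRNA-4058, 1 between the hairpins in Jurkat and 2 between the lines (in place of 5, CD1B, CD1D and CD1E having entered through Jurkat alone). With a GC and length offset, 2 members were called between the Jurkat controls and 1 between the HSB-2 hairpins. With library totals, 0 were called in pooled HSB-2 against scrambled, 1 with shRNA-4057 in HSB-2, 3 between the Jurkat controls, and 1 and 2 in the interactions of shRNA-4057 and shRNA-4058. With scrambled and wild-type as 1 control, 0 were called in HSB-2. In pooled Jurkat CD1E was then called lower (-0.56, edgeR adjusted p 0.018), with its scrambled level below that of wild-type. With the mean of the hairpins in the fit of 8 groups, 5 were called in Jurkat.

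Most values that changed sign were near 0. CD1A with shRNA-4058 in Jurkat became 0.024 under the count filter, 0.043 with the offset and 0.27 with library totals. In HSB-2 it became -0.037 and -0.12 with the offset and the totals, and its interaction 0.081 and 0.39. The offset also gave CD1C 0.014 between the Jurkat hairpins and 0.0033 between the Jurkat controls. Library totals gave CD1A 0.11 in pooled Jurkat, CD1E 0.10 with shRNA-4058, and CD1B -0.081 and CD1D -0.12 between the Jurkat controls. CD1A in pooled HSB-2 became -0.32 with both controls as 1. Library totals also ended the calls of CD1A with shRNA-4057 in Jurkat (adjusted p 0.31) and HSB-2 (0.33) and of CD1D with shRNA-4058 (0.38). Beyond the construction of each setting, the cause was not tested.

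With each library left out, called members numbered 2 to 3 in pooled Jurkat against scrambled, 0 to 3 against wild-type, 3 to 4 with shRNA-4058, 3 to 4 between the Jurkat hairpins, 0 to 1 in both pooled HSB-2 comparisons and 1 to 2 with shRNA-4057 in HSB-2. CD1A with shRNA-4058 ranged from -0.040 to 0.051 in Jurkat, from -0.023 to 0.19 in HSB-2 and from -0.20 to 0.0078 in the interaction. CD1C ranged from -0.067 to 5.8e-05 between the Jurkat controls and from -0.19 to 0.28 between the HSB-2 hairpins. Ratio differences ranged from -0.085 to 0.075 for CD1C to CD1D, from -0.081 to 0.092 for CD1C to CD1E and from -0.059 to 0.092 for CD1D to CD1E. With 4 against 3 libraries the exact permutation test of ratios cannot go below p 0.057, so 0 pairs were called. A lone library left in a group is assumed to vary like the other groups. Depth limits CD1B, CD1D and CD1E in HSB-2, and 2 libraries per group limit every comparison.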

Other observations

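Between CD1D and CD1A lie 2 other genes of the count table that were counted in Jurkat, both on the minus strand and without a symbol, looked at after their values were seen. A lncRNA, ENSG00000176320, from 158167712 to 158173667 on chromosome 1 of GRCh37, was at 15.5 ± 1.4 CPM (SD, n = 2) in wild-type, 8.67 ± 0.74 in scrambled, 10.9 ± 1.1 with shRNA-4057 and 15.97 ± 1.9 with shRNA-4058. It was called higher than scrambled with shRNA-4057 (log2 fold change 0.34, adjusted p 0.021) and shRNA-4058 (0.88, adjusted p 1.3e-06) in edgeR, where CD1D was called lower, and scrambled was below wild-type cells (-0.85, adjusted p 8.2e-06). With the hairpins pooled it did not pass (0.66, edgeR adjusted p 0.052). A processed pseudogene, ENSG00000229914, from 158165423 to 158165921, was at 21.4 ± 0.32 CPM in wild-type, 13.2 ± 0.19 in scrambled, 13.1 ± 0.72 with shRNA-4057 and 16.3 ± 0.97 with shRNA-4058. It was called with shRNA-4058 (0.30, adjusted p 0.020) and not with shRNA-4057 (-0.016). In HSB-2 both genes had at most 0.085 CPM in any group. They entered the fit of 8 groups through their Jurkat counts, so no call is read for them there.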
